A study of Mus musculus with 3 samples.

Results

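The cells described here are the deeply sequenced cells of cluster 2, the largest endothelial cluster of a single-cell transcriptome of mouse heart endothelium, divided by their transcripts of *Mki67*. *Mki67* encodes Ki-67, a nuclear protein of proliferating cells. Cells of cluster 2, as numbered by the authors, with at least 10,000 UMIs were taken. Cells with at least 2 *Mki67* UMIs were called cycling, and cells with 0 were called resting. Of 9562 cells in all and 5396 in cluster 2, 4431 reached that depth, and 3991 fell in either class, 3143 cycling and 848 resting. The remaining 440 cells had 1 *Mki67* UMI and were left out. Because the classes were chosen on *Mki67* counts, *Mki67* itself and the other cell cycle genes describe the division and are not findings.

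Endothelial cells had been sorted from hearts of adult female mice that carry a transgene for green fluorescent protein (GFP), as GFP+ CD31+ VE-cadherin+ cells without PDGFRA, PDGFRB, CD41 or CD45. They were taken fresh, or recovered after 24, 48, 72 or 96 h of co-aggregation with PSCs (PDGFRA+ stromal cells) of the Mesp1 lineage, sorted as DsRed+ cells from the aorta-gonad-mesonephros of E11.5 *Mesp1*-DsRed embryos. The recovered endothelial cells were sorted as GFP+ CD31+ VE-cadherin+ cells without PDGFRA, and the paper names no gate on CD41, CD45 or PDGFRB for that sort. All co-aggregates shared medium with IL-3, SCF and Flt3L. Cells of all times went into each of 3 pools (A, B and C). The share of each time in a pool is not given, and no cell carries its time. Barcodes end in 1 of 3 suffixes, here libraries 1, 2 and 3. The files used here tie no suffix to a pool, so each comparison was made between classes within a library, and p-values measure only the spread over these 3 libraries, which may be technical. Of 9549 distinct barcodes, 13 occurred in more than 1 library.

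Most endothelial cells of an adult heart are quiescent, held outside the cell cycle. Entry into the cycle passes from G1, where D-type cyclins act against inhibitors such as p21 and p57, through DNA synthesis in S phase to the mitotic apparatus of G2 and M. Notch signalling, which is strongest in arterial endothelium, and shear stress are known to restrain endothelial division, whereas VEGF drives it. The question here was which genes of endothelial identity differed between the classes, apart from cell cycle genes.

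Library 1 held 1113 cycling and 381 resting cells, library 2 held 1206 and 275, and library 3 held 824 and 192. Cycling cells were deeper, with a median of 29,774 UMIs against 18,729 in resting cells. Within libraries 1, 2 and 3 the medians were 28,613, 21,907.5 and 46,770 in cycling cells and 18,787, 14,532 and 29,671.5 in resting cells. Since a shallow cell is more likely to show 0 *Mki67* UMIs, the endothelial counts were repeated with cells paired by depth and with every cell thinned to 10,000 UMIs and put in a class again by its thinned *Mki67* count. No cell carries its time, so class and time of co-aggregation cannot be told apart. UMIs were summed over the cells of each class and library, which gave 6 sums of 4,562,597 to 40,400,780 UMIs, and levels are given as UMIs per 10,000 UMIs of a sum.

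The cells had the markers of their label. Summed over 7 endothelial markers (*Pecam1*, *Cdh5*, *Kdr*, *Tie1*, *Tek*, *Emcn* and *Egfl7*), the level was 33.1 to 37.3 in resting and 30.1 to 32.1 in cycling cells, with no marker at 0. The 4 haematopoietic markers summed to 0.107 to 0.114 in resting and 0.0663 to 0.100 in cycling cells, and the 4 stromal markers to 0.0347 to 0.101 and 0.0587 to 0.0886. The 2 cardiomyocyte markers summed to 0.0395 to 0.0536 and 0.0701 to 0.0819, the 2 megakaryocyte markers to 0.149 to 0.225 and 0.0879 to 0.160, and the macrophage, neutrophil and germ cell markers stayed at or below 0.0581 in either class. *Pdgfra* was at 0 in resting cells of library 3 and *Pdgfrb* in those of libraries 1 and 3, and no other marker of these types was at 0 in a library. The endothelial counts were repeated without cells that held any UMI of *Ptprc*, *Itga2b*, *Pf4*, *C1qb*, *S100a8*, *Pdgfra* or *Dppa5a*, and the part of the cardiomyocyte markers was not tested. Mitochondrial transcripts took 3.28% to 3.81% of resting and 2.85% to 3.23% of cycling UMIs, and ribosomal protein transcripts 19.6% to 21.6% and 19.2% to 21.5%. The part of these last differences in the results was not tested.

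The 2 classes differed in cell cycle genes as their definition required. *Top2a*, whose enzyme untangles DNA before mitosis, stood at 0.775, 0.802 and 0.573 UMIs per 10,000 in the resting cells of libraries 1, 2 and 3 and at 4.24, 4.95 and 4.14 in the cycling cells. The classes did not overlap, and the log2 ratio of cycling to resting was 2.66 (SE 0.0605). Each of the 53 G2/M genes tested rose (edgeR's quasi-likelihood test on the sums with library as a block, Benjamini-Hochberg adjusted p under 0.05), against 24.8% of the 9399 genes tested. Their median log2 ratio was 2.04, with *Hmmr* (spindle assembly, 3.35), *Cenpf* (kinetochore, 3.34) and *Nusap1* (spindle microtubules, 3.31) at the upper end and *Ctcf* (chromatin loops, 0.48) at the lower. Among 83 further genes of replication and mitosis, 75 rose and 1 fell, and *Aspm*, a protein of the spindle poles, had a ratio of 4.07.

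S phase genes separated the classes far less. Of 43 tested, 30 rose, 4 fell and 9 did not pass, and their median was 0.38. *Rrm2*, which supplies deoxynucleotides, rose (1.13), and so did *Pcna*, the sliding clamp of DNA polymerase (0.34). *Ung*, a uracil glycosylase, fell (log2 ratio -0.58, SE 0.0912, edgeR adjusted p = 1.74e-05), with 0.649, 0.572 and 0.498 UMIs per 10,000 in resting and 0.335, 0.383 and 0.421 in cycling cells. The replication licensing genes *Mcm6* (-0.13) and *Mcm4* (-0.12) also fell, and outside this list the G1/S regulator *E2f1* fell (-0.28). These ratios turned with the way the cells were divided. When the same cells were divided by *Top2a* UMIs, the ratios of *Ung*, *Mcm6*, *Mcm4* and *E2f1* were 0.45, 0.21, 0.38 and 0.64, and against resting cells without any *Top2a* UMI they were 0.39, 0.13, 0.36 and 0.53. Over all cell cycle lists 158 genes rose and 5 fell, and without library 1 or without library 2 only 1 fell.

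The resting class was not free of cells with cell cycle transcripts. Of the resting cells, 50.24% had no *Top2a* UMI, but 29.6% had at least 2, against 89.41% of cycling cells. Per 10,000 UMIs of a cell, the 251 resting cells with at least 2 *Top2a* UMIs had a median of 46.8 UMIs of S phase genes, above the median of 37.3 in cycling cells, and a median of 48.8 UMIs of G2/M genes, below the 103.3 in cycling cells. The 426 resting cells with no *Top2a* UMI had medians of 19.03 and 23.9. "Resting" thus means 0 *Mki67* UMIs and no more.

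At the border of the rule stood the 440 cells with 1 *Mki67* UMI and the 347 with exactly 2. In them *Top2a* stood at 1.495 and 1.92 UMIs per 10,000, *Gja4* at 0.971 and 0.940, and *Cdkn1c* at 3.76 and 3.31, each over all libraries together. The libraries differed, with *Gja4* at 0.573, 1.26 and 1.34 in cells with 1 UMI of libraries 1, 2 and 3. In cells with exactly 2 it stood at 0.817, 1.29 and 0.782. The median per cell of G2/M UMIs per 10,000 was 56.3 with 1 UMI and 70.8 with exactly 2.

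Promoters of the leading genes of the S and G2/M lists are shown because transcription in S phase is known to depend on E2F sites, and in G2/M on the cell cycle homology region (CHR) together with CCAAT boxes. Each runs from 250 bases before to 50 bases after the start site given by RefSeq on GRCm38.p6, in the direction of the gene. Capitals mark the letters searched on both strands, TTTGAA or TTCGAA for the CHR, CCAAT for the CCAAT box and TTTCCCGC or TTTGGCGC for E2F, none of which contains another. The promoters lie at chr8:46551819-46552118 (*Cenpu*, plus strand), chr7:48881547-48881846 (*E2f8*, minus strand), chr11:40733388-40733687 (*Hmmr*, minus strand) and chr1:189688037-189688336 (*Cenpf*, minus strand).
Cenpu: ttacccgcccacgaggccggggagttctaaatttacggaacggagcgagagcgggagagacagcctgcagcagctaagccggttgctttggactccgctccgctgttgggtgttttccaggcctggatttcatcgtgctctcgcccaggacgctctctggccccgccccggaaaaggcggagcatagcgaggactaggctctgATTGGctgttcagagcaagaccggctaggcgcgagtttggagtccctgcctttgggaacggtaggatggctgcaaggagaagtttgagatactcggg
E2f8: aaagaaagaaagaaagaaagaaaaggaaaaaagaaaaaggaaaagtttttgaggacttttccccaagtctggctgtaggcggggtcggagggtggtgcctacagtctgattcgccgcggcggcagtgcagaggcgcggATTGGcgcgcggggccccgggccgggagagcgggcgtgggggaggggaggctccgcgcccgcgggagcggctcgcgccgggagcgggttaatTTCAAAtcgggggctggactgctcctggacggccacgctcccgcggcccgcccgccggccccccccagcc
Hmmr: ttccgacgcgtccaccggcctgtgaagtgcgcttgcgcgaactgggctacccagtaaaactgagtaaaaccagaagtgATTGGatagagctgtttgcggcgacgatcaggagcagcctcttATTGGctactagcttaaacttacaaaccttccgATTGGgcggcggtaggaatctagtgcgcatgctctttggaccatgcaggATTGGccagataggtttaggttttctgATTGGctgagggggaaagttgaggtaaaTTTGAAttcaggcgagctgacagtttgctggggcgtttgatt
Cenpf: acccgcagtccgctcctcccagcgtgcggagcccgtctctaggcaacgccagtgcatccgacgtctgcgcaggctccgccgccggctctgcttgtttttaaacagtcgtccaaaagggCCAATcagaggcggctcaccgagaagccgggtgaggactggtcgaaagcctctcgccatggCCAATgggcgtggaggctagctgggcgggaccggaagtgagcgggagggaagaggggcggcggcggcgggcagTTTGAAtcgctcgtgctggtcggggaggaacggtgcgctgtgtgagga
Only genes whose promoter held some of these letters were chosen for printing, so a match in each was fixed in advance. The CHR letters stood in the promoters of *E2f8*, *Hmmr* and *Cenpf*, and not in that of *Cenpu*. No E2F letters stood in any of the printed promoters. Of 47 G2/M promoters, that of *Mki67* included, found in RefSeq, 36 (76.6%) held CHR letters, against 16.1% of the genes tested and 21.7% of all promoters in RefSeq. CCAAT letters stood in 76.6% of G2/M and 71.0% of S phase promoters, against 43.3% of the genes tested and 41.1% of all. E2F letters stood in 32.3% of 31 S phase promoters and 4.26% of G2/M promoters, against 3.93% and 1.8%. Of 26 promoters of endothelial genes that fell at least 1.5-fold, 3 held CHR letters, 8 (30.8%) CCAAT letters and 0 E2F letters. A match describes these letters and shows neither a bound site nor a cause.

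**Figure D1:**
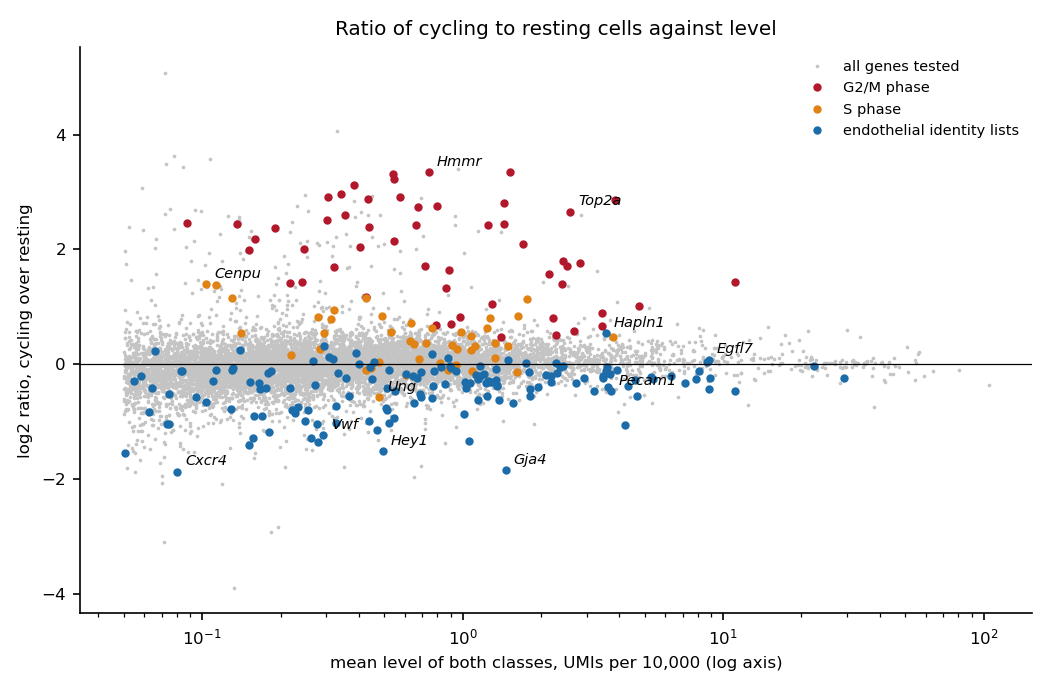
Each point is a gene of the 9399 tested, with its mean level over both classes (UMIs per 10,000, log axis) against its log2 ratio of cycling to resting cells. G2/M genes lie above 0 with a median of 2.04, whereas the endothelial identity genes have a median of -0.32.

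Endothelial identity genes were lower in cycling cells far more often than higher. Over 10 lists of endothelial identity, 147 of 191 genes passed the filter on low counts and were tested. Of these 147, 105 fell, 4 rose and 38 did not pass, whereas 24.1% of all genes tested fell and 24.8% rose. Their median log2 ratio was -0.32, and the median over all genes tested was -0.002. With a change of at least 1.5-fold required as well, 38 endothelial genes fell and 0 rose, against 5.06% and 3.92% of all genes. Removing the only endothelial gene that is also on the list of cell cycle inhibitors left 104 of 146. After pairing each resting cell with a cycling cell of its depth, 84 fell and 7 rose of 149 tested, with a median of -0.22, where 17.2% of all genes fell and 17.0% rose. After thinning, with the classes made anew, 83 fell and 6 rose with a median of -0.21, where 16.3% of all genes fell and 16.5% rose. Without cells that held UMIs of other cell types, 94 of 148 fell and 2 rose with a median of -0.34, where 17.8% of all genes fell and 18.6% rose. The libraries of the 2 classes did not overlap for 84 genes that were lower and 4 that were higher, against 22.1% and 18.8% of all genes.

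**Figure D2:**
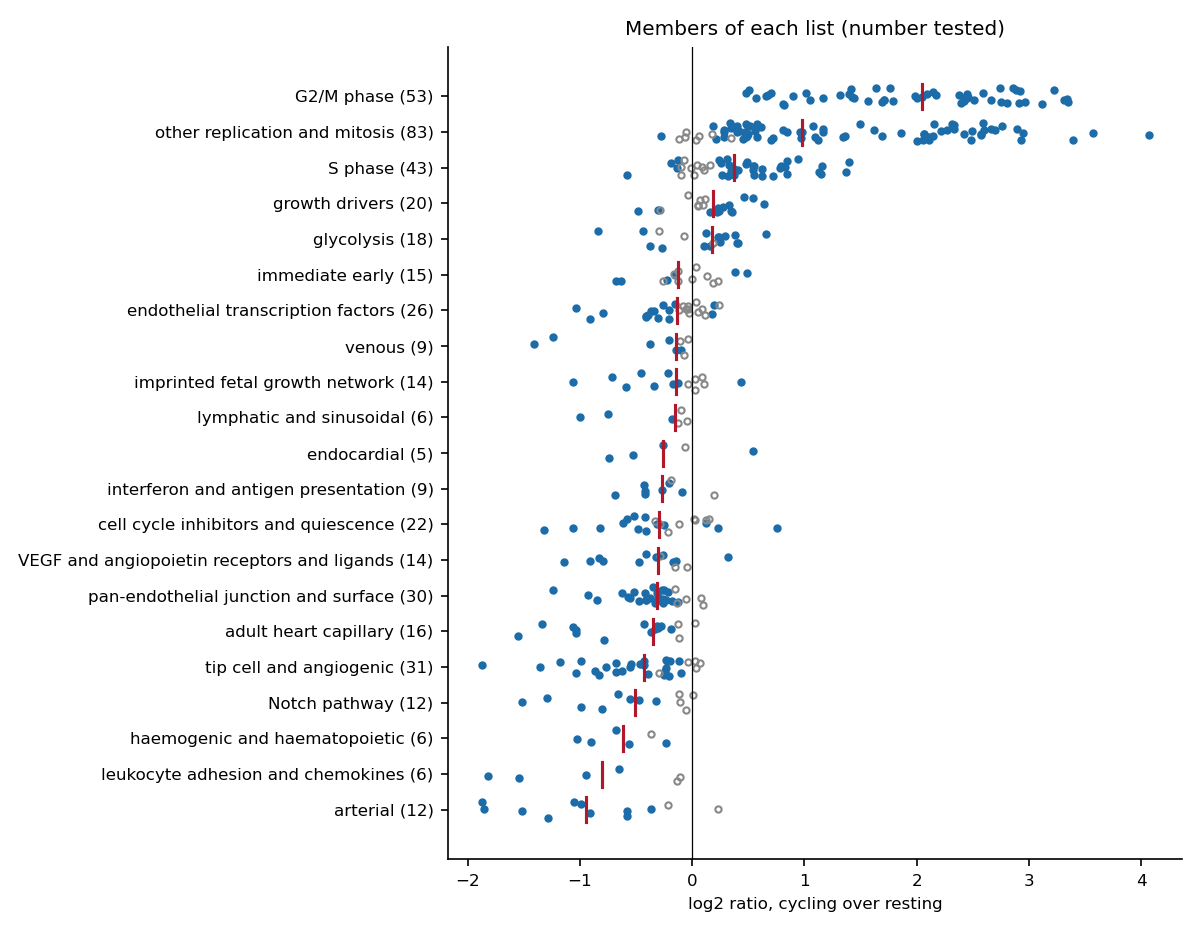
Each point is a tested member of the list named on the left, placed by its log2 ratio of cycling to resting cells. Filled points passed the test, open points did not, and the red bar is the median of the list. The arterial list has the lowest median, -0.95, and the G2/M list the highest, 2.04.

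Arterial genes had the lowest median of the endothelial lists, -0.95 over 12 tested, of which 10 fell and 0 rose. Here and in the lists that follow, counts stand beside the 24.1% of all genes that fell and the 24.8% that rose. *Gja4* encodes connexin 37, a gap junction protein of arterial endothelium. It stood at 2.27, 2.30 and 2.32 UMIs per 10,000 in resting cells of libraries 1, 2 and 3 and at 0.593, 0.636 and 0.642 in cycling cells. Its classes were more than 3 times apart in each library, and their spread was small (log2 ratio -1.85, SE 0.0472, edgeR adjusted p = 1.72e-18). With cells paired by depth its ratio was -1.59. *Cxcr4*, the receptor of the chemokine CXCL12, fell as well, from 0.187, 0.0701 and 0.121 to 0.0357, 0.0365 and 0.0307 (log2 ratio -1.88, SE 0.190, edgeR adjusted p = 3.84e-08). The 3 resting libraries of *Cxcr4* were spread widely but lay above all cycling ones. The connexin 40 gene *Gja5* (-1.05), the endothelin-1 gene *Edn1* (-1.28), the semaphorin gene *Sema3g* (-0.91), the ephrin gene *Efnb2* (-0.58) and the transcription factor gene *Sox17* (-0.36) also fell. The highest ratio on the list was that of *Clu* (0.23). Its libraries were higher in cycling cells with no overlap, but it did not pass.

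The Notch pathway followed the arterial genes, with which it shares *Hey1* and *Dll4*. Of 12 genes tested, 8 fell, 0 rose and the median was -0.51. *Hey1*, a transcriptional repressor and direct target of Notch, stood at 0.808, 0.697 and 0.696 UMIs per 10,000 in resting and 0.259, 0.276 and 0.225 in cycling cells. No library of one class reached the other (log2 ratio -1.51, SE 0.0682, edgeR adjusted p = 3.70e-14). The ligand gene *Dll4* fell from 0.586, 0.590 and 0.578 to 0.269, 0.334 and 0.269 (log2 ratio -0.99, SE 0.0701, edgeR adjusted p = 1.12e-10). The ligands *Jag1* (-0.80) and *Jag2* (-0.66), the Fringe enzyme *Lfng* (-1.29), the receptor *Notch4* (-0.55) and the feedback target *Nrarp* (-0.47) also fell. The receptor *Notch1* (log2 ratio -0.12, edgeR adjusted p = 0.0701), the DNA-binding partner *Rbpj* (0.01) and the target *Hes1* (-0.05) did not pass. When classes were made with *Top2a* in place of *Mki67*, *Notch1* was also called lower (-0.31).

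A lower sum can mean fewer cells with a transcript or fewer transcripts in each, and both were counted after thinning the cells of the original classes to 10,000 UMIs. *Gja4* was detected in 35.7% of resting cells (exact 95% binomial interval 32.5% to 39.1%) and in 17.6% of cycling cells (16.309% to 19.0045%). Cluster 5, whose cells carry blood cell genes, showed 9.19%. Its cells were not free of endothelial transcripts, with *Pecam1* detected in 39.3% and *Cdh5* in 26.2% of them. Its shares therefore do not give a background level. Cells with *Gja4* held a mean of 6.72 UMIs in the resting and 3.78 in the cycling class, so both the share and the amount per positive cell were lower. *Hey1* was detected in 31.4% of resting, 14.1% of cycling and 4.30% of cluster 5 cells, and *Dll4* in 35.6%, 22.1% and 6.03%. Without thinning the shares of *Gja4* were 41.5%, 26.3% and 16.4%, those of *Hey1* 40.5%, 24.98% and 11.3%, and those of *Dll4* 46.2%, 39.5% and 12.9%, at median depths of 18,729, 29,774 and 40,557 UMIs. Intervals cover counting error only.

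Endothelial genes were also lower among cells without UMIs of 3 arterial genes. When every cell with a UMI of *Gja4*, *Gja5* or *Cxcr4* was left out, an alternative chosen after the data were seen, 104 to 210 resting and 556 to 844 cycling cells remained per library. Of 140 endothelial genes tested in them, 86 fell and 2 rose, with a median of -0.27, where 14.0% of all genes fell and 16.0% rose. In these cells *Hey1* (-0.78), *Dll4* (-0.43), *Lfng* (-0.90) and *Esm1* (-0.69) were still called lower, whereas *Sox17* (-0.04), *Jag2* (-0.26), *Notch4* (-0.26) and *Sema3g* (-0.46) no longer passed. The filter used all UMIs of a cell, and resting cells were shallower, with a median of 18,729 UMIs against 29,774 before filtering. Arterial cells could therefore stay undetected more easily in the resting class. Whether the remaining classes held like shares of arterial cells was not tested.

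**Figure D3:**
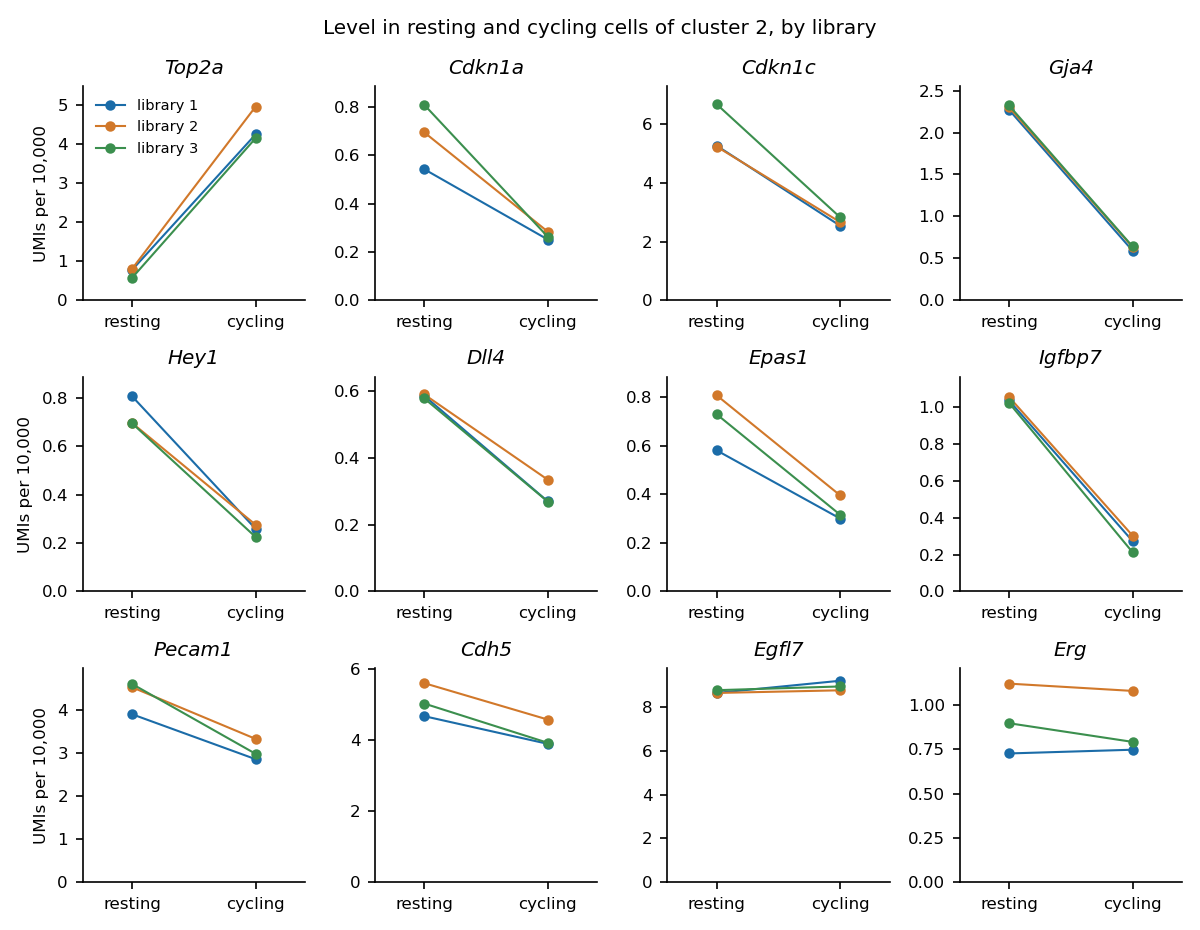
Levels of 12 genes (UMIs per 10,000) in the resting and cycling cells of cluster 2, with a line for each of the 3 libraries. *Top2a* rose in each library, the inhibitor, arterial and Notch genes fell in each, and *Egfl7* and *Erg* overlapped between classes.

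Pan-endothelial genes of the junctions and the surface fell by less. Of 30 tested, 25 fell and 0 rose, with a median of -0.32, and 4 fell at least 1.5-fold. *Pecam1*, the adhesion molecule CD31 used in the sort, stood at 3.90, 4.53 and 4.61 UMIs per 10,000 in resting and 2.86, 3.33 and 2.98 in cycling cells. The classes did not overlap (log2 ratio -0.47, SE 0.0418, edgeR adjusted p = 4.53e-09). *Cdh5*, which encodes VE-cadherin of the adherens junction, went from 4.66, 5.59 and 5.02 to 3.89, 4.57 and 3.92 (log2 ratio -0.27, SE 0.0376, edgeR adjusted p = 3.52e-06). Larger falls were those of *Vwf*, the von Willebrand clotting factor (-1.24), *Cav1*, the coat protein of caveolae (-0.93), and *Procr*, the protein C receptor (-0.85). The endothelial receptor kinase gene *Tie1* (-0.55) and the tight junction gene *Cldn5* (-0.33) fell too. *Egfl7*, a secreted endothelial protein, stood at 8.63, 8.63 and 8.75 in resting and 9.18, 8.75 and 8.92 in cycling cells and did not pass (log2 ratio 0.08, edgeR adjusted p = 0.0588). It passed as higher in depth-paired cells (0.19), after thinning (0.15) and without cells with *Gja4*, *Gja5* or *Cxcr4* UMIs (0.10). Its ratio was -0.04 with classes made by *Top2a* and 0.01 against resting cells without any *Top2a* UMI, and neither passed. The angiopoietin receptor *Tek* (0.10) and the adhesion gene *Icam2* (-0.05) did not pass, and *Tek* was called higher in depth-paired cells (0.24). The ratio of *Tek* was -0.04 without cells that held UMIs of other cell types. Without cells with *Gja4*, *Gja5* or *Cxcr4* UMIs it was -0.11, and neither passed.

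The transcription factors of endothelium had the median nearest 0 of the 10 endothelial lists, -0.13, but the venous (-0.14) and the lymphatic and sinusoidal (-0.15) lists were close. In depth-paired cells the median was -0.11 for the factors, -0.11 for the venous list and -0.02 for the lymphatic and sinusoidal list. Of 26 factors tested, 13 fell, 2 rose and 11 did not pass. *Epas1* encodes HIF-2α, a hypoxia-responsive factor, and stood at 0.582, 0.809 and 0.731 UMIs per 10,000 in resting and 0.300, 0.396 and 0.316 in cycling cells (log2 ratio -1.03, SE 0.0621, edgeR adjusted p = 6.43e-12). *Prdm1* (-0.91) and the SoxF genes *Sox7* (-0.79), *Sox18* (-0.41) and *Sox17* (-0.36) fell. The ETS factors *Erg* (log2 ratio -0.03, edgeR adjusted p = 0.660) and *Fli1* (-0.08), which bind many endothelial enhancers, did not pass. The libraries of *Erg* ran from 0.725 to 1.12 in resting and from 0.746 to 1.08 in cycling cells and overlapped almost wholly. The factors that rose were *Hhex* (0.17) and *Lyl1* (0.20), and *Hhex* did not pass without library 2 (0.15) or without library 3 (0.14), nor *Lyl1* without library 1 (0.14) or library 3 (0.13).

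Among VEGF and angiopoietin genes 10 of 14 tested fell and 1 rose, with a median of -0.31. The netrin receptor *Unc5b*, known from arterial and tip cells, went from 0.494, 0.824 and 0.640 to 0.244, 0.363 and 0.255 UMIs per 10,000 (log2 ratio -1.14, SE 0.0662, edgeR adjusted p = 3.33e-12). The ligand genes *Angpt2* (-0.83) and *Vegfc* (-0.79) and the co-receptor *Nrp1* (-0.47) fell. *Kdr*, the main VEGF receptor, fell slightly (log2 ratio -0.26, SE 0.0381, edgeR adjusted p = 6.12e-06), with 4.73, 7.10 and 5.95 in resting and 4.12, 5.61 and 4.66 in cycling cells. Its 3 libraries were each lower in cycling cells, but the classes overlapped. *Flt4*, the receptor of VEGF-C, did not pass (-0.05), and *Vegfb* rose (0.32).

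Tip cell and angiogenic genes fell broadly, in 26 of 31 tested, with 0 higher and a median of -0.43. *Esm1*, a proteoglycan secreted by tip cells, stood at 0.456, 0.427 and 0.321 UMIs per 10,000 in resting and 0.163, 0.184 and 0.119 in cycling cells (log2 ratio -1.35, SE 0.0817, edgeR adjusted p = 7.01e-12). The vasoactive peptide gene *Adm* (-1.18), the basement membrane genes *Nid2* (-0.86), *Col4a2* (-0.56) and *Col4a1* (-0.43), the pericyte attractant *Pdgfb* (-0.68) and the IGF-binding gene *Igfbp3* (-0.68) fell. *Sox11* (0.02) and *Marcksl1* (0.04) did not pass, nor did *Mest*, an imprinted gene on this list, at 24.0, 23.1 and 21.5 in resting and 22.98, 21.9 and 20.6 in cycling cells.

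Genes of other vessel beds behaved less evenly. Of 16 adult heart capillary genes tested 13 fell and 0 rose, with a median of -0.35, led by *Tmem100* (-1.55), the matrix gene *Sparcl1* (-1.33) and *Rgcc* (-1.03). In depth-paired cells 7 of 15 fell. Of 9 venous genes 6 fell and 0 rose, with a median of -0.14, and in depth-paired cells 3 fell with a median of -0.11. Of all genes 24.1% fell, and 17.2% fell in depth-paired cells. The venous factor *Nr2f2* did not pass (log2 ratio -0.04, edgeR adjusted p = 0.524), nor did the receptor *Ephb4* (-0.07). *Aplnr*, the apelin receptor that is high in cluster 2, stood at 3.77, 4.20 and 4.31 in resting and 3.61, 3.66 and 3.89 in cycling cells and was barely past the threshold (log2 ratio -0.10, SE 0.0391, edgeR adjusted p = 0.0356). It did not pass without library 2 (-0.07) or without library 3 (-0.10), and its ratio was 0.05 in depth-paired cells. In cells without *Gja4*, *Gja5* or *Cxcr4* UMIs, *Nr2f2* was called lower (-0.32).

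Of 6 lymphatic and sinusoidal genes 3 fell and 0 rose (median -0.15), against 24.1% of all genes that fell. In depth-paired cells 1 of the 6 fell, a share near the 17.2% of all genes, and the median was -0.02. Among the genes that fell were the hyaluronan receptor *Lyve1* (0.355, 0.395 and 0.257 UMIs per 10,000 in resting and 0.188, 0.168 and 0.131 in cycling cells) and the lymphatic factor *Prox1* (-0.75). *Lyve1* did not pass in depth-paired cells (-0.30), and *Prox1* did not once cells with UMIs of other cell types were left out (-0.24). Of 5 endocardial genes 3 fell and 1 rose (median -0.26). The gene that rose was *Hapln1*, a linker of hyaluronan in the matrix of the developing heart valves, with 2.89, 3.29 and 2.60 UMIs per 10,000 in resting and 3.98, 4.64 and 3.85 in cycling cells. The classes did not overlap (log2 ratio 0.54, SE 0.0410, edgeR adjusted p = 3.85e-10), and it was the largest rise among the endothelial identity genes tested. The natriuretic peptide receptor gene *Npr3* fell (-0.74).

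Cell cycle inhibitors and quiescence genes were divided. Of 22 tested, 11 fell, 3 rose and 8 did not pass, with a median of -0.30, where 24.1% of all genes fell and 24.8% rose. *Cdkn1a*, which encodes p21, went from 0.542, 0.695 and 0.809 UMIs per 10,000 in resting to 0.252, 0.284 and 0.263 in cycling cells (log2 ratio -1.31, SE 0.0760, edgeR adjusted p = 3.22e-12). *Cdkn1c*, the imprinted gene of p57, went from 5.26, 5.23 and 6.67 to 2.54, 2.66 and 2.82 (log2 ratio -1.06, SE 0.0445, edgeR adjusted p = 1.00e-14). Both were lower in each library with no overlap. The antiproliferative genes *Btg1* (-0.61) and *Btg2* (-0.52), the MYC antagonist *Mxi1* (-0.82) and the retinoblastoma gene *Rb1* (-0.58) also fell. *Cdkn2d*, which encodes p19 of the INK4 family, was higher in cycling cells (log2 ratio 0.76, SE 0.0843, edgeR adjusted p = 1.56e-07), with 0.218, 0.173 and 0.212 against 0.354, 0.332 and 0.321. *Cdkn1b*, which encodes p27, rose less (0.23) and did not pass without library 2 (0.20), and the flow-induced factor *Klf2* (0.12) did not pass without library 1 (0.08) or library 2 (0.14).

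Growth drivers rose in 11 of 20 tested and fell in 2, with a median of 0.19, where 24.8% of all genes rose and 24.1% fell. The nucleolar genes *Ncl* (0.64), *Nop58* (0.54) and *Npm1* (0.47) led the rises, and *Ncl* stood at 10.8, 13.2 and 11.52 in resting and 15.9, 19.6 and 18.5 in cycling cells. The BMP target *Id1* fell (-0.48), as did *Ccnd2*, which encodes cyclin D2 (-0.31), though its ratio was 0.28 with classes made by *Top2a* and it did not pass without library 2 (-0.16). Glycolysis genes rose in 11 of 18 and fell in 4, but in depth-paired cells 4 rose and 4 fell with a median of 0.0. Of all genes 17.0% rose and 17.2% fell in depth-paired cells. *Slc2a1*, the main endothelial glucose transporter GLUT1, fell from 5.18, 4.56 and 5.63 to 2.88, 2.75 and 2.76 (log2 ratio -0.84, SE 0.0461, edgeR adjusted p = 1.38e-12), and its ratio in depth-paired cells was -0.75. *Eno1* (0.41) and *Ldha* (0.38), which act late in glycolysis, rose.

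Of 14 imprinted genes of the fetal growth network 8 fell and 1 rose, with a median of -0.15, where 24.1% of all genes fell and 24.8% rose. *Igf2*, a fetal growth factor, stood at 10.6, 17.1 and 19.4 UMIs per 10,000 in resting and 6.90, 10.3 and 10.5 in cycling cells (log2 ratio -0.71, SE 0.0386, edgeR adjusted p = 1.04e-12). Each library was lower in cycling cells, though library 1 was low in both classes. *H19* fell (-0.46) and *Peg3* rose (0.44). Of 6 haemogenic and haematopoietic genes tested 5 fell and 0 rose (median -0.62), among them *Laptm5* (-1.02) and the factor *Mecom* (-0.90), the latter also expressed in arterial endothelium. Summed over all 20 genes of this list, the level was 1.68 to 1.89 in resting and 0.981 to 1.33 in cycling cells. In depth-paired cells 2 of the 6 fell, where 17.2% of all genes fell. Of 9 interferon and antigen presentation genes 7 fell and 0 rose (median -0.27), such as *B2m* (-0.42) and *H2-D1* (-0.42), and of 15 immediate early genes 4 fell and 2 rose with a median of -0.12 (*Fos*, 0.38, and *Fosb*, 0.49). The share of immediate early genes that fell was near the 24.1% of all genes, and in depth-paired cells 2 fell. Of 6 leukocyte adhesion genes and chemokines 4 fell and 0 rose (median -0.80), and in *Cxcl12* (-0.95) the classes overlapped.

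Outside the cell cycle lists, the genes with the largest ratios in either direction were ranked among those with at least 0.5 UMIs per 10,000 in the higher class. Unlisted genes whose names start with prefixes common in replication and mitosis, such as Mcm, Cenp, Kif, Cdc and Hist, were not ranked. The 15 highest were led by *Fbxo5*, an inhibitor of the anaphase-promoting complex (1.65), *Knstrn* of the kinetochore (1.59), *Trim59* (1.44), *Rnf26* (1.36) and *Plk4* of centriole duplication (1.28). They held *Hsph1*, a heat shock protein (0.91), and the nuclear pore gene *Nup37* (1.17).

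Of the 15 lowest, *Igfbp7*, a matrix protein of vessels that binds IGF, stood at 1.03, 1.05 and 1.02 UMIs per 10,000 in resting and 0.273, 0.302 and 0.212 in cycling cells. The classes were well apart in each library (log2 ratio -1.97, SE 0.0693, edgeR adjusted p = 4.39e-16). *Mxd4*, which opposes MYC, went from 0.835, 1.22 and 1.18 to 0.251, 0.350 and 0.317 (log2 ratio -1.78, SE 0.0549, edgeR adjusted p = 4.00e-17). *Foxq1*, a forkhead factor, fell (-1.79), as did the matrix genes *Vwa1* (-1.38), *Mfap2* (-1.15) and *Ecm1* (-1.14), the FOXO target *Depp1* (-1.18), the carbonic anhydrase *Car2* (-1.13) and the polyamine enzyme *Sat1* (-1.09). In cells without *Gja4*, *Gja5* or *Cxcr4* UMIs, *Mxd4* (-1.61) and *Igfbp7* (-1.60) kept most of their size, whereas *Sat1* (-0.34) and *Ecm1* (-0.42) were closer to 0.

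Several of these genes were already lower in cells with 1 *Mki67* UMI. In cells with 0, 1, 2 to 3, 4 to 7 and 8 or more *Mki67* UMIs, *Gja4* stood at 2.30, 0.971, 0.951, 0.623 and 0.541 UMIs per 10,000, over all libraries together. *Cdkn1c* stood at 5.71, 3.76, 3.14, 2.62 and 2.59, and *Igfbp7* at 1.04, 0.378, 0.299, 0.269 and 0.243. For these 3 genes the drop from 0 to 1 UMI was larger than any later step. *Pcna* went the other way and peaked in between, at 0.583, 0.680, 0.789, 0.772 and 0.690, whereas *Top2a* climbed at each step from 0.717 to 5.55. *Mest* ran from 22.97 to 21.4. The steps held 848, 440, 640, 911 and 1592 cells, and their median depth rose from 18,729 to 36,213.5 UMIs, so that step and depth cannot be told apart here. Within the class of 0 *Mki67* UMIs, *Gja4* stood at 3.20 in cells without *Top2a* UMIs and at 1.28 in cells with at least 2, and *Cdkn1c* at 7.07 and 4.47.

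**Figure D4:**
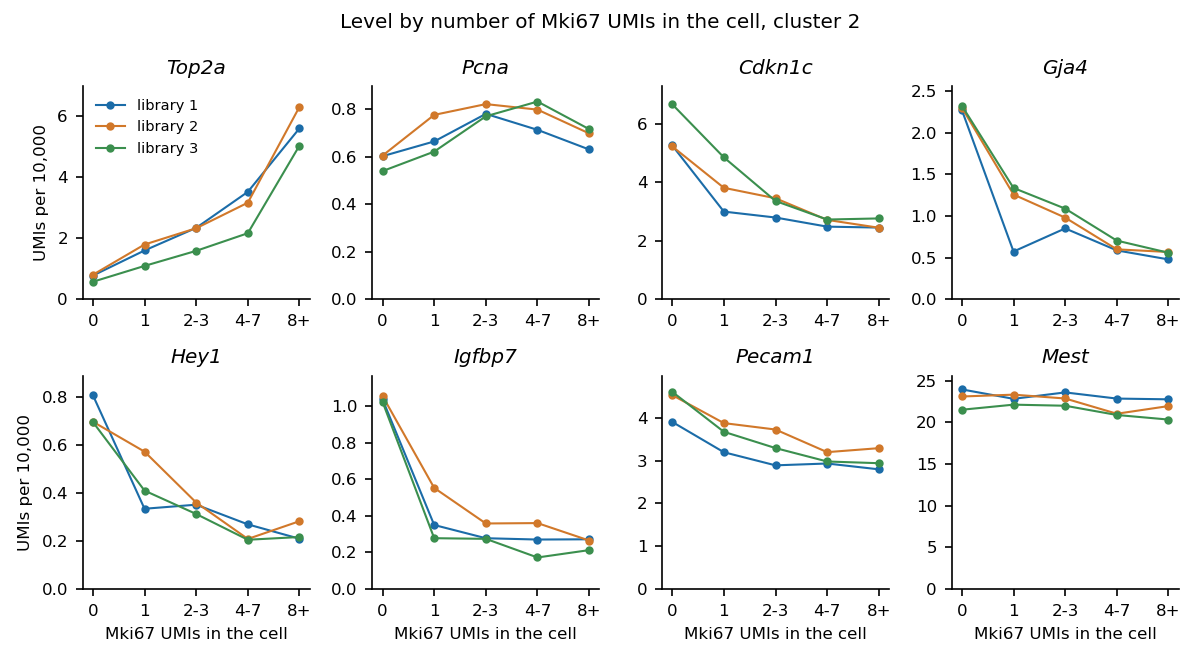
Levels of 8 genes (UMIs per 10,000) in cells of cluster 2 grouped by their number of *Mki67* UMIs, with a line for each library. *Gja4*, *Hey1*, *Igfbp7* and *Cdkn1c* dropped between 0 and 1 UMI in each library, *Pcna* was highest in the middle groups, and *Mest* stayed between 20 and 24.

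The same division was made in the other clusters that had at least 10 cells of each class in each library, and the difference of the ratios was tested. These comparisons share the cells of cluster 2, and the cluster numbers rest on the counts tested. Cluster 0, in which *Gja4* stood higher than in cluster 2, held 168 cycling and 318 resting cells. In it 84 of 146 endothelial genes fell and 8 rose, with a median of -0.39, where 14.2% of all genes fell and 13.0% rose, and the median of the same genes in cluster 2 was -0.29. For 24 of the 146 the ratio differed between the clusters, against 4.82% of all 9710 genes tested. Over all genes the ratio differed for 468, higher in cluster 0 for 335 and lower for 133, and with library sizes alone as the scale for 446 and 48. Without library 1 it differed for 290 and without library 3 for 246. Cluster 1 (37 cycling and 205 resting cells) differed in 39 of 146 endothelial genes against 10.1% of all, cluster 4 (255 and 143) in 24 of 147 against 5.83%, and cluster 5 (1178 and 74) in 31 of 143 against 4.29%. The counts over all genes were 1005, 603 and 422, and without a library 421 to 593, 240 to 371 and 93 to 262.

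Of the arterial genes, *Gja4*, *Hey1* and *Edn1* fell less in cluster 0 than in cluster 2. For *Cxcr4* (difference 0.74), *Gja5* (0.42), *Sema3g* (0.36), *Dll4* (0.21), *Stmn2* (0.14) and *Efnb2* (0.03) the difference did not pass. Nor did it pass for *Sox17* (-0.21), *Ltbp4* (-0.32) and *Clu* (-0.34). *Gja4* stood at 15.9, 15.7 and 15.9 UMIs per 10,000 in the resting cells of cluster 0 and at 12.2, 9.75 and 10.7 in its cycling cells, a log2 ratio of -0.57. The difference from cluster 2 was 1.27 (SE 0.0695). *Hey1* (difference 0.88) and *Edn1* (0.77) likewise fell less in cluster 0. So did *Vwf* (0.62) and *Jag1* (0.49), which are not on the arterial list, although *Jag1* did not pass without any 1 of the libraries (0.45 to 0.62). *Aplnr* stood at 0.170, 0.243 and 0.0935 in the resting and at 0.726, 0.744 and 0.664 in the cycling cells of cluster 0, a rise that cluster 2 did not show (difference 2.19). *Nr2f2* (1.90) and *Nrp2* (1.73) did the same. *Hapln1* rose in both clusters, and more in cluster 0 (difference 0.92). *Icam2* fell more in cluster 0 (difference -0.45) and passed under every alternative tried. *Cldn5* (-0.29), *Kdr* (-0.26) and *Cdh5* (-0.21) were also called, but with library sizes alone as the scale (-0.22, -0.19 and -0.13) and with DESeq2 (-0.24, -0.21 and -0.15) none of the 3 passed. Without a library, *Cldn5* did not pass without library 2 (-0.13) or library 3 (-0.32), *Kdr* without any 1 library (-0.19 to -0.26), and *Cdh5* without library 1 (-0.13) or library 2 (-0.14).

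**Figure D5:**
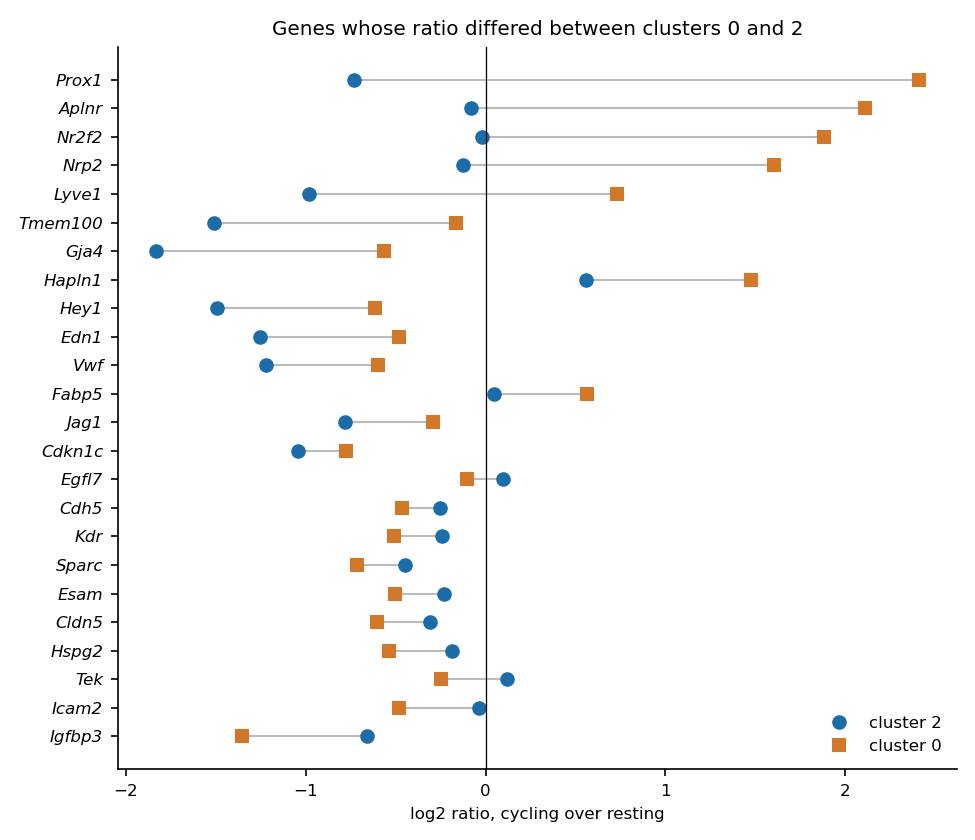
Log2 ratio of cycling to resting cells in cluster 2 (circles) and cluster 0 (squares) for the 24 endothelial identity genes whose ratio differed between the clusters. *Gja4*, *Hey1* and *Edn1* lie further left in cluster 2, and *Aplnr*, *Nr2f2* and *Nrp2* lie far to the right only in cluster 0.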

How the data were processed

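Single-cell libraries were made with the 10x Genomics 3′ v3 chemistry. The submitters' processing notes name Cell Ranger 3.1.0 and Seurat 3.1.5 and the mm10 genome. The authors aggregated the libraries with the batch-effect removal of Cell Ranger and deposited raw UMI counts per gene and cell, which were used here with their cluster numbers. The normalized table and the UMAP coordinates were not used. The 9562 cells equal the number the study states, and 90 of them had fewer than 5000 UMIs, the study's stated minimum. The authors' sort gates removed doublets before loading, which leaves droplets with more than 1 cell, and no doublet caller was run here.

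Counts were summed over each class and library (6 sums), and genes with a mean of at least 5 CPM were tested with edgeR 4.0.16 (TMM, quasi-likelihood) with the library as a block, at a Benjamini-Hochberg adjusted p under 0.05, in R 4.3.3 with limma 3.58.1. DESeq2 1.42.0 served as an alternative. Levels are UMIs per 10,000 UMIs of a sum. Depth pairing gave each resting cell the nearest unused cycling cell of its library (median log2 gap 0.00199, largest 1.475). Shares carry exact 95% binomial intervals. Tables were made in Python 3.11.15 (pandas 2.3.3, with scipy 1.17.1 for the intervals and numpy 2.4.6 for the thinning) and plots with matplotlib 3.10.9. The edgeR, DESeq2 and cluster difference models were tested on simulated sums with planted changes. The simulation did not cover the assignment of cells to classes by *Mki67* counts, which depend on depth.

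The classes, the gene lists and the markers were chosen with earlier results of these data known. Genes named are *Mki67*, examples of each list and for each direction the 15 of largest ratio that reached 0.5 UMIs per 10,000 in the higher class, moved the same way in 3 libraries and lay outside the cell cycle lists. The ranking also left out names that start with prefixes common in replication and mitosis, such as Mcm, Cenp, Kif, Cdc, Ccna, Ccnb, Hist, Pol, Orc, Tub and Hmg. Alternatives changed the scaling, the filter, the *Mki67* and depth limits, the classes (by *Top2a*) and the cells kept. The alternatives that required 1.5-fold and that left out cells with *Gja4*, *Gja5* or *Cxcr4* UMIs were chosen after the data were seen. Some items are not reported here.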

Additional observations from a re-analysis of the deposited data

Results flagged for a closer look

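The ratio of cycling to resting cells differed between clusters 0 and 2 by a test of the difference itself (edgeR, interaction of class and cluster) for 24 endothelial identity genes. As the ratio in cluster 0 minus that in cluster 2, on the log2 scale, it was higher for *Prox1* (3.14), *Aplnr* (2.19), *Nr2f2* (1.90), *Nrp2* (1.73), *Lyve1* (1.71), *Tmem100* (1.35), *Gja4* (1.27), *Hapln1* (0.92), *Hey1* (0.88), *Edn1* (0.77), *Vwf* (0.62), *Fabp5* (0.52), *Jag1* (0.49) and *Cdkn1c* (0.27). It was lower for *Igfbp3* (-0.70), *Icam2* (-0.45), *Tek* (-0.37), *Hspg2* (-0.35), *Cldn5* (-0.29), *Esam* (-0.27), *Sparc* (-0.27), *Kdr* (-0.26), *Cdh5* (-0.21) and *Egfl7* (-0.20). All 24 kept their direction in the alternatives run, but 17 passed with library sizes alone as the scale, 19 with no filter, 16 with DESeq2, 10 at 20,000 UMIs, and 18, 14 and 13 without libraries 1, 2 and 3. *Aplnr*, *Gja4*, *Hapln1*, *Hey1*, *Icam2*, *Nrp2*, *Tmem100* and *Vwf* passed in each of these. *Tek*, *Kdr* and *Egfl7* passed in none of them, *Hspg2* in none that left out a library, and *Esam*, *Sparc*, *Cldn5* and *Cdh5* neither with library sizes alone nor with DESeq2. *Prox1* did not pass without library 2 (2.01) or library 3 (2.94), nor *Lyve1* without library 3 (1.04), and *Prox1* stood at most at 0.130 UMIs per 10,000 in cluster 0. The same test gave 39 endothelial genes for cluster 1, 24 for cluster 4 and 31 for cluster 5. Clusters 1 and 5 rest on 37 cycling and 74 resting cells.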

How the results depend on the processing

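The library was a block because both classes come from each library. With no replicate block, 1166 genes were higher and 1171 lower, against 2331 and 2267, and of the endothelial genes 2 were higher and 69 lower, against 4 and 105. In the cell cycle lists 1 was lower, against 5. Of the genes named singly, 25 lost their call and 127 did not change sides.

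Other counts moved by more than 1.5 times as follows. Over all genes, higher and lower were 1550 and 1348 with DESeq2, 1440 and 1374 at 20,000 UMIs or more, 1490 and 1299 without cells with *Gja4*, *Gja5* or *Cxcr4* UMIs, and 368 and 476 with 1.5-fold required, and 1547 were higher after thinning, which also put cells in classes anew. Endothelial genes higher were 2 with DESeq2, 12 with no filter on low counts, 7 with depth pairing, 2 without cells carrying UMIs of other types, 2 without cells with *Gja4*, *Gja5* or *Cxcr4* UMIs and 0 with 1.5-fold, where 38 were lower. Cell cycle genes lower were 1 with DESeq2, 2 with no filter, 3 with 1 *Mki67* UMI allowed as cycling, 3 at 5000 UMIs, 2 at 20,000, 14 after thinning, 1 with *Top2a* classes, 0 against resting cells without *Top2a*, 2 without cells carrying UMIs of other types, 11 without cells with *Gja4*, *Gja5* or *Cxcr4* UMIs, 0 with 1.5-fold and 1 to 6 without a library. The share of calls that were higher was 50.7%, and 61.4% with no filter.

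Clusters 0, 1, 4 and 5 differed from cluster 2 in 246 to 348, 421 to 593, 240 to 371 and 93 to 262 genes without a library. Cluster 0 gave 146 at 20,000 UMIs, and cluster 4 gave 1176 with no filter. Counts at 20,000 UMIs are not given for clusters 1, 4 and 5, which held as few as 6, 7 and 8 cells of a class in a library. Of the calls in cluster 0, 71.6% were higher, against 90.3% with library sizes alone, 82.9% with no filter, 87.0% at 20,000 UMIs, 89.5% with DESeq2 and 79.3% to 87.6% without a library.

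Ratios that changed sign included those of *Mcm4* (0.38 with *Top2a* classes, 0.36 against resting cells without *Top2a*), *Mcm6* (0.21, 0.13), *Ung* (0.45, 0.39), *E2f1* (0.64, 0.53) and *Ccnd2* (0.28, 0.17). Others were *Cd34* (0.043) and *Lyl1* (-0.084) without cells with *Gja4*, *Gja5* or *Cxcr4* UMIs, *Aplnr* with depth pairing (0.053) and *Nrp2* after thinning (0.006). *Egfl7* and *Tek*, which had not passed (0.08 and 0.10), also changed sign. *Egfl7* did so with *Top2a* classes (-0.044). *Tek* did so without cells carrying UMIs of other types (-0.037) and without cells with *Gja4*, *Gja5* or *Cxcr4* UMIs (-0.108). The cause was not tested. Depth limits the resting class most, with sums of 4,562,597 to 7,651,851 UMIs.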

Other observations

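Of the genes of other cell types, 1 cardiomyocyte gene was deep enough to be tested. *Tnnt2*, the cardiac troponin T gene, was higher in cycling cells (log2 ratio 0.80), at 0.0364 to 0.0523 UMIs per 10,000 in resting and 0.0666 to 0.0774 in cycling cells. It had no fit in depth-paired cells and did not pass without cells with *Gja4*, *Gja5* or *Cxcr4* UMIs (0.38). Stromal, macrophage, neutrophil and germ cell lists had 0 genes deep enough.

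Some further values were chosen after they were seen. *Hbb-bs*, an adult β-globin, had 0.00261, 0.00877 and 0.00173 UMIs per 10,000 in the resting cells of libraries 1, 2 and 3 and 0.00409, 0.00613 and 0.407 in the cycling cells, so that its log2 ratio of 5.08 came from library 3, and DESeq2 gave 1.796. *Gm42418*, which overlaps ribosomal RNA, stood at 21.7, 62.9 and 61.0 in resting and 14.0, 37.4 and 31.4 in cycling cells (log2 ratio -0.75, and -0.26 with depth pairing).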
